A study of Mus musculus with 10 samples.

Results

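The Gimap genes encode small GTPases of lymphocytes, and the 8 members described here (Gimap1, Gimap3, Gimap4, Gimap5, Gimap6, Gimap7, Gimap8 and Gimap9) were taken by symbol from a deposited expression table, where all 8 were among 12637 genes. RNA had been sequenced from naive CD8+ T cells of female C57Bl/6 mice aged 6 weeks, sorted from spleen as CD62L high and CD44 low or negative. The mice were WT or Ikaros-Zn4-/-, a mutant of the lymphoid transcription factor Ikaros that is called the mutant below. Cells were taken directly (0 min) or after 30 or 120 min on plate-bound antibodies against CD3, a part of the T cell receptor complex, and against its costimulatory receptor CD28. Each genotype gave 2 libraries without stimulation, 2 after 30 min and 1 after 120 min, 10 libraries in all. The controls were the unstimulated cells of each genotype, and no sample analysed here was labelled as cultured for 30 or 120 min without the antibodies. The genotype is that of the animal, so an effect on the development of the cells and one on their response cannot be told apart. Whether replicate libraries came from separate mice is not stated, and p-values here reflect only how far these samples spread, which may be technical.

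GIMAP stands for GTPase of immunity-associated protein. These proteins share a GTP-binding AIG1 domain, and several of them sit on the membranes of intracellular organelles. Gimap5 and Gimap1 are known for keeping peripheral T cells alive, and mice or rats without a working Gimap5 are short of T cells. Ikaros is a zinc finger protein that binds DNA at sites with the core GGGAA.

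Recovered sequencing depths ranged from 4.50 to 13.3 M reads, and the members rested on 101 reads (Gimap7, mutant, 120 min) to 12274 reads (Gimap6, WT, 30 min). The CD8 T cell markers were all in the table (8 of 8), and their summed level was 3118 to 4322 RPKM (reads per kb of transcript and per library of a fixed size) at 0 and 30 min and 1687 to 1722 RPKM at 120 min. Of 5 B cell markers 2 were in the table (4.47 to 15.1 RPKM summed) and of 5 myeloid markers 3 (8.14 to 34.2 RPKM). Of 5 NK cell markers only Gzma was in the table, at 0 to 0.212 RPKM in WT and 2.10 to 9.28 RPKM in mutant libraries, and Ctla4 was the only 1 of 4 markers of CD4 and regulatory T cells (2.75 to 34.7 RPKM). None of 6 erythroid and platelet markers was in the table. The part of other cells in the results below was not tested. Ikzf1, the gene of Ikaros, was at 134 to 171 RPKM in WT and 206 to 263 RPKM in mutant libraries, but gene totals cannot show which zinc finger is mutated.

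The 8 genes lie side by side on chromosome 6, between 48647234 and 48770851 (GRCm38, GENCODE M21, as for all gene positions here), and all are annotated as protein coding. From low to high coordinate the order is Gimap8 (48647234 to 48660875), Gimap9 (48676129 to 48679114), Gimap4 (48684549 to 48692060), Gimap6 (48701582 to 48708225), Gimap7 (48718621 to 48724636), Gimap1 (48739054 to 48743795), Gimap5 (48746197 to 48754210) and Gimap3 (48764464 to 48770851). Gimap6 and Gimap3 are on the minus strand, and the other 6 are on the plus strand. Some values of the locus are less certain because of how reads are counted. Gimap3 and Gimap5 are close paralogs. Of the 50-base words of Gimap3, 8.15% also occur in another gene, mainly Gimap5, and of those of Gimap5, 4.53% also occur in another gene, mainly Gimap3. The antisense transcript Gimap1os covers 36.0% of the exonic bases of Gimap1 on the opposite strand, and the library kit does not mark strand, so their reads cannot be told apart there. A readthrough gene, Gm28053, shares 3.48%, 6.44% and 3.69% of the exonic bases of Gimap7, Gimap1 and Gimap5.

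The sequence just upstream of the start site is shown for 4 members, in RefSeq's GRCm38.p6. They were chosen after their values were seen: Gimap3 and Gimap8 had the deepest falls at 120 min over both genotypes together, and Gimap6 and Gimap9 had no fall that passed the test. Each is 250 bases long and ends at the base before the start site that RefSeq gives, which can differ by some bases from that of GENCODE. It is given 5′ to 3′ on the strand of the gene, at chr6:48770852-48771101 (minus), chr6:48646984-48647233 (plus), chr6:48708245-48708494 (minus) and chr6:48675885-48676134 (plus) in the order below. Capitals mark every match to the Ikaros core GGGAA or, for a match on the other strand, TTCCC.
Gimap3: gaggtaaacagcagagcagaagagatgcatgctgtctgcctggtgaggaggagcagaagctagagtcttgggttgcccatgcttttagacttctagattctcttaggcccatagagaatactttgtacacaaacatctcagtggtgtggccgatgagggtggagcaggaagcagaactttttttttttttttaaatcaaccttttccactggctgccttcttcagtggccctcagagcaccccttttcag
Gimap8: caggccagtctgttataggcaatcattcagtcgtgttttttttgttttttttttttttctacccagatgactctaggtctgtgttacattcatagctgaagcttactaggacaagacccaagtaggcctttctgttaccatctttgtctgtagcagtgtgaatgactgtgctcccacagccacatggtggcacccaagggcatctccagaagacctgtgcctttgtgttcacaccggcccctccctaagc
Gimap6: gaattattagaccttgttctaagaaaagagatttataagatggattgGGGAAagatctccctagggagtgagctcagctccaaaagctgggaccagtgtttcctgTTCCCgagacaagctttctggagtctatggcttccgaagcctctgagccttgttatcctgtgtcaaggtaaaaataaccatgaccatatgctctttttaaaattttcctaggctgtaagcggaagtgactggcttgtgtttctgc
Gimap9: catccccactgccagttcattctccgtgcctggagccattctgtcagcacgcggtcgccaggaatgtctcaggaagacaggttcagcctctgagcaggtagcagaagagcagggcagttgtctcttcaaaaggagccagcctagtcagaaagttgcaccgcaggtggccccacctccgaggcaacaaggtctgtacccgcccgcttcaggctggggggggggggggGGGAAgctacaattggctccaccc
The sequences of Gimap3 and Gimap8 held no match. That of Gimap6 held 2, which start 203 and 145 bases upstream of its start site, and that of Gimap9 held 1, 24 bases upstream. Over the 8 members, 3 sequences held GGGAA on either strand (Gimap9, Gimap6 and Gimap5), as did 56.2% of 32851 promoter sequences of the same length. The longer form TGGGAA, which overlaps the core, was in 0 of 8, against 21.6% of promoters. The ETS core GGAA, which overlaps GGGAA, was in 7 of 8 (93.4% of promoters), the ETS motif CCGGAAGT in 0 of 8 (2.88%) and the RUNX motif TGTGGT in 3 of 8 (14.0%). The KLF motif CACCC was in 5 of 8 (52.0%), and the TATA motif TATAAA was in Gimap6 alone (12.4%). Both strands were searched for each motif. A match is a run of letters, not evidence of a bound site.

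Resting cells of both genotypes expressed all 8 genes, from 20.6 to 377 RPKM, and the lowest of them was Gimap7 in each. In WT cells at 0 min Gimap3, a close paralog of Gimap5, was the most abundant at 365 and 377 RPKM. Gimap6, which binds autophagy proteins of the ATG8 family, followed at 267 and 214 RPKM, and Gimap4, which promotes T cell death in culture, at 174 and 227 RPKM. The Gimap6 and Gimap4 ranges overlapped, while Gimap3 lay above both. Gimap8, a large member with more than 1 GTP-binding domain, was at 85.9 and 93.0 RPKM, apart from its neighbours in the order. Gimap9 (54.7 and 60.1 RPKM) and Gimap1 (53.5 and 70.8 RPKM) overlapped. Gimap5 was at 44.2 and 48.2 RPKM and Gimap7, a GTPase that can act on other GIMAP proteins, at 29.5 and 36.9 RPKM, with no overlap between them. By mean level over all genes of the table, Gimap3 stood at rank 65 and Gimap7 at rank 1519 of 12637 in WT cells at 0 min.

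In mutant cells at 0 min the leading place belonged to Gimap4 (299 and 343 RPKM), ahead of Gimap3 (269 and 286 RPKM) and Gimap6 (256 and 190 RPKM), with no overlap between these 3. Gimap1 (34.2 and 57.4 RPKM) overlapped Gimap5 (36.3 and 39.9 RPKM) there. Gimap7 was the lowest member in 10 of 10 libraries. Gimap6 led in 6 libraries, the 6 stimulated ones, Gimap3 in the 2 WT libraries at 0 min and Gimap4 in the 2 mutant libraries at 0 min. These orders are within a library, so no scaling between libraries bears on them.

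**Figure D1:**
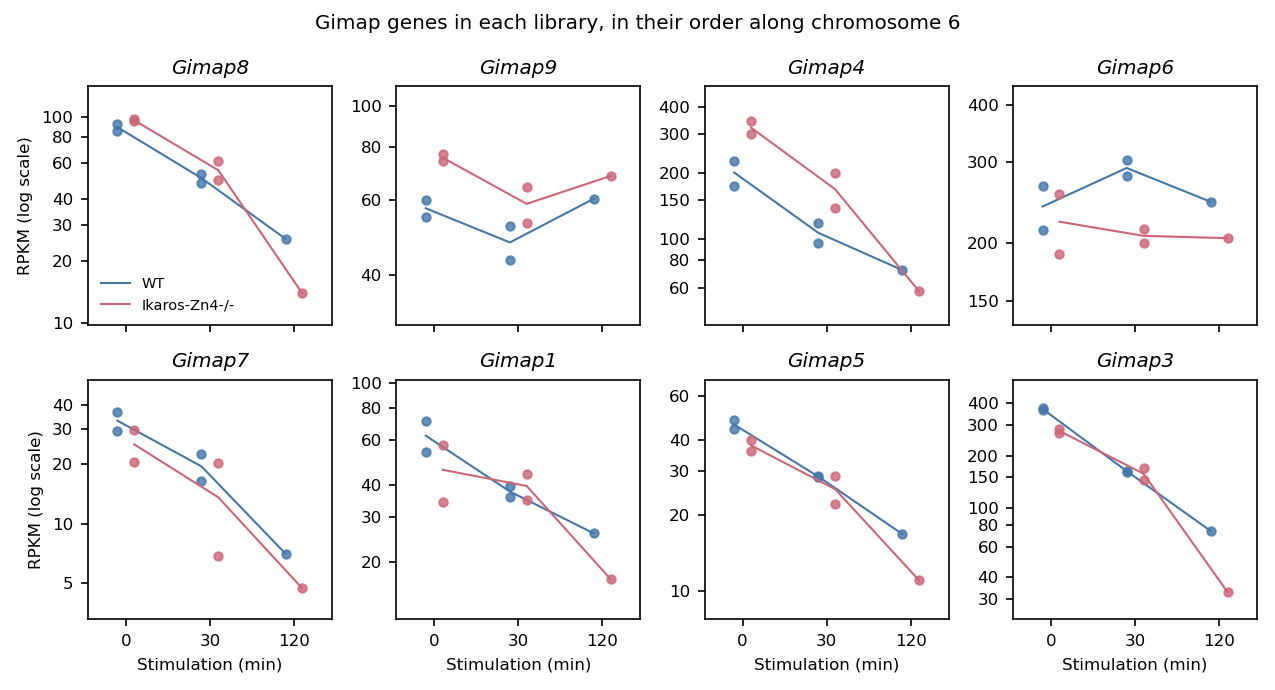
Level of each Gimap gene in every library, in RPKM on a log axis, by time after stimulation, with 1 point per library, lines through the group means and the genotypes marked by colour. The group means of Gimap3, Gimap8, Gimap4, Gimap5, Gimap1 and Gimap7 descend with time in both genotypes, while those of Gimap9 and of Gimap6 in WT cells do not and those of Gimap6 in mutant cells differ little.

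The first comparison asked what 30 min of stimulation did, over 4 libraries against 4. Of the 8 members 4 fell (Gimap3, Gimap4, Gimap5 and Gimap8) and 0 rose, in limma on log2(RPKM + 1) with Benjamini-Hochberg adjusted p below 0.05 over 12203 genes. Of all genes 12.5% fell and 6.51% rose. After scaling by the median ratio 9.16% rose and 6.84% fell, and after quantile normalization 8.40% rose and 8.42% fell. All genes together had a median log2 change of -0.13 after 30 min and of -0.32 after 120 min, and changes with stimulation are given below relative to these medians on the log2(RPKM + 1) scale. The adjusted p tests the deposited change. In bulk RNA, fewer cells of a type and less RNA per cell cannot be told apart.

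Gimap3 was at 365 and 377 RPKM in WT cells at 0 min and at 164 and 162 RPKM at 30 min. In mutant cells it was at 269 and 286 RPKM at 0 min and at 144 and 171 RPKM at 30 min. All 4 libraries at 30 min lay below all 4 at 0 min. The WT mean at 30 min was 44.0% and the mutant mean 56.9% of that at 0 min. The log2 change of Gimap3 was -0.86 (SE 0.09, limma, adjusted p = 0.00212).

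Gimap8 was at 85.9 and 93.0 RPKM at 0 min and at 48.1 and 53.1 RPKM at 30 min in WT cells, and at 97.7 and 95.3 and then 49.5 and 61.0 RPKM in mutant cells. The times did not overlap, and both genotypes kept nearly the same share of their resting level, 56.6% in WT and 57.3% in mutant cells. The change of Gimap8 was -0.67 (SE 0.10, limma, adjusted p = 0.00423).

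Gimap5, the best known survival factor of the family, was at 44.2 and 48.2 RPKM at 0 min and at 28.8 and 28.4 RPKM at 30 min in WT cells. In mutant cells it was at 36.3 and 39.9 and then 22.2 and 28.7 RPKM, and again no library at 30 min reached the level of any at 0 min. Its change was -0.49 (SE 0.10, limma, adjusted p = 0.0108). All 30 min libraries lay below all 0 min libraries for Gimap3, Gimap5 and Gimap8, 3 of 8 members, as for 15.0% of all genes.

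Gimap4 was at 174 and 227 RPKM at 0 min and at 95.4 and 118 RPKM at 30 min in WT cells, and at 299 and 343 and then 138 and 199 RPKM in mutant cells. The times did not overlap within a genotype, but the higher mutant library at 30 min exceeded the lower WT library at 0 min. The change of Gimap4 was -0.79 (SE 0.16, limma, adjusted p = 0.0123). Without WT replicate 2 at 0 min the adjusted p was 0.0508 for Gimap4 and 0.0501 for Gimap5, and 2 members were called. Without WT replicate 1 at 30 min it was 0.0544 for Gimap4.

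Gimap7 had a change of -0.74 at 30 min but a wide spread (SE 0.31, limma, adjusted p = 0.095), since the mutant libraries at 30 min held 6.85 and 20.4 RPKM against 20.6 and 29.7 RPKM at 0 min. Without the mutant replicate 2 at 30 min Gimap7 was called, with an adjusted p of 0.0172. Gimap1, which is required for mature lymphocytes, had a change of -0.30 (SE 0.18, limma, adjusted p = 0.144), at 60.7% of its resting level in WT and 86.5% in mutant cells. Gimap9 had a change of -0.18 (SE 0.11, adjusted p = 0.0783) and Gimap6 of 0.23 (SE 0.14, adjusted p = 0.633). Limma-voom on reads recovered from the RPKM steps also called Gimap7 and Gimap9 lower, and called 3261 of 12140 genes. A model with the replicate number as a block also called Gimap1, Gimap7 and Gimap9 lower, and called 3484 of 12203 genes. Tested within 1 genotype, 2 libraries against 2 with the spread taken from all groups, 3 members fell in WT cells (Gimap3, Gimap5 and Gimap8, background 2.82%) and 2 in mutant cells (Gimap3 and Gimap8, background 1.06%). No member was called in WT cells when any 1 of the 4 WT libraries at 0 or 30 min was left out. None was called in mutant cells when any 1 of the 8 libraries at these times was left out.

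At 120 min the family had split into 6 members that fell and 2 with no detectable change. The 6 were Gimap1, Gimap3, Gimap4, Gimap5, Gimap7 and Gimap8, and of all genes 40.4% fell and 19.3% rose. Scaled by the median ratio, 29.9% of genes rose and 29.9% fell, and after quantile normalization 28.0% rose and 28.7% fell. The median deposited log2 change was -1.75 for the 8 members and -0.32 for all genes. Each genotype has a single library at 120 min, whose spread was taken to be that of the other groups. Both libraries at 120 min carry replicate number 2, while each earlier group holds both replicate numbers. The 120 min comparisons are thus partly confounded with replicate number, which only the model with the replicate block takes into account. The summed level of the CD8 T cell markers was lower in these same 2 libraries, as given above, and 7 of these 8 markers fell at 120 min. The other, Ccr7, rose from 270 and 225 to 544 RPKM in WT and from 265 and 245 to 497 RPKM in mutant cells. At 30 min Ccr7 had risen and Cd3e and Cd8a had fallen, where 6.51% and 12.5% of all genes did. The summed level thus mixes both directions.

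Gimap3 reached 73.9 RPKM in WT cells and 33.0 RPKM in mutant cells at 120 min, from 365 and 377 and from 269 and 286 RPKM at 0 min. That is 5.02-fold lower in WT and 8.41-fold lower in mutant cells, and both values lay below every earlier library. The change of Gimap3 was -2.36 (SE 0.12, limma, adjusted p = 3.23e-05), and only 0.59% of all genes had a lower one. Its rank by level in WT cells went from 65 to 555.

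Gimap8 was at 25.7 RPKM in WT and 13.9 RPKM in mutant cells at 120 min, 3.49-fold and 6.94-fold lower than at 0 min. Both values lay below all 8 earlier libraries, which held 48.1 to 97.7 RPKM. Its change was -1.92 (SE 0.12, limma, adjusted p = 3.7e-05).

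Gimap4 was at 72.1 and 57.7 RPKM at 120 min in WT and mutant cells, 2.78-fold and 5.57-fold lower than at 0 min, with a change of -1.64 (SE 0.20, limma, adjusted p = 0.000199). Gimap5 was at 16.8 and 11.0 RPKM, 2.74-fold and 3.47-fold lower, with a change of -1.24 (SE 0.13, limma, adjusted p = 9.63e-05). For both genes the 120 min libraries were the lowest of their genotype and of the series.

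Gimap1 was at 25.9 RPKM in WT and 17.2 RPKM in mutant cells at 120 min, 2.40-fold and 2.67-fold lower than at 0 min, and its change was -0.95 (SE 0.23, limma, adjusted p = 0.00254). Gimap7 was at 7.06 RPKM in WT and 4.71 RPKM in mutant cells, 4.70-fold and 5.35-fold lower, and its change was -1.81 (SE 0.38, limma, adjusted p = 0.0027). For Gimap7 the times did not separate fully, because the mutant replicate 1 at 30 min, at 6.85 RPKM, was below the WT library at 120 min. Both 120 min libraries lay below all earlier ones for Gimap1, Gimap3, Gimap4, Gimap5 and Gimap8, 5 of 8 members, as for 32.7% of all genes.

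**Figure D2:**
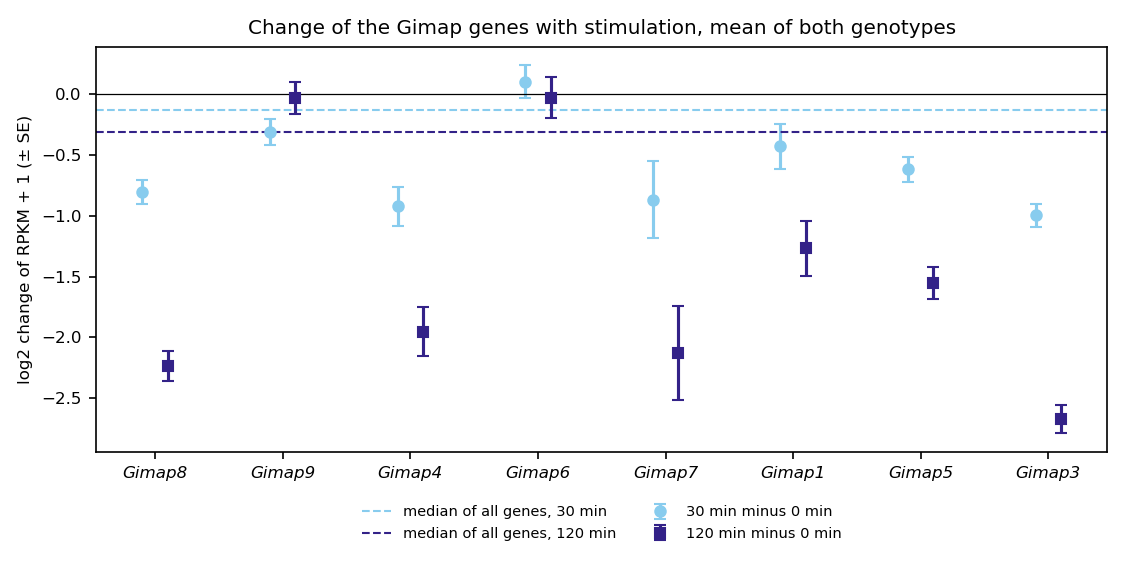
Log2 change of each Gimap gene after 30 and 120 min against 0 min, on the log2(RPKM + 1) scale of the deposited values, with SE from limma, beside the median of all genes. At 120 min 6 members lie well below the median of -0.32 and Gimap6 and Gimap9 lie near 0.

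Gimap6 had no detectable change. It was at 267 and 214, then 303 and 280, then 246 RPKM in WT cells at 0, 30 and 120 min, and at 256 and 190, then 215 and 200.5, then 205 RPKM in mutant cells. The times overlapped in mutant cells. In WT cells both 30 min values were above those of 0 min, and the 120 min value was between the 0 min values. At 120 min the level was 102% of that at 0 min in WT and 92.1% in mutant cells. The deposited log2 change was -0.03 (SE 0.17, limma, adjusted p = 0.893), which is 0.29 above the median of all genes.

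Gimap9 was at 54.7 and 60.1, then 43.3 and 52.0, then 60.5 RPKM in WT cells, and at 77.1 and 74.2, then 53.1 and 64.5, then 68.5 RPKM in mutant cells. All values of 30 min were below those of 0 min within each genotype. The 120 min values were near those of 0 min, at 105% in WT and 90.5% in mutant cells. The share of all genes that separate so within a genotype, as Gimap4 also did and Gimap6 in WT cells, was not counted. For Gimap9 neither the change from 0 to 30 min (limma, adjusted p = 0.0783) nor that from 30 to 120 min passed the test. Its deposited change at 120 min was -0.03 (SE 0.13, limma, adjusted p = 0.846), or 0.28 relative to the median of all genes. Gimap9 was higher at 120 min when libraries were scaled by the median ratio (0.37, adjusted p = 0.0179), and Gimap6 then had a change of 0.38 (adjusted p = 0.122). By level over all genes in WT cells, Gimap6 went from rank 113 to 90 and Gimap9 from rank 769 to 729.

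From 30 to 120 min 6 members fell, the same 6 as from 0 to 120 min, and of all genes 31.3% fell and 16.9% rose. With scaling by the median ratio 25.7% rose and 24.9% fell, and after quantile normalization 23.6% rose and 22.4% fell. Relative to the median of all genes in this comparison, -0.22, the changes were -1.46 for Gimap3, -1.21 for Gimap8, -1.04 for Gimap7, -0.81 for Gimap4, -0.72 for Gimap5 and -0.62 for Gimap1. Gimap9 had a change of 0.50 (adjusted p = 0.111) and Gimap6 of 0.09 (adjusted p = 0.552). With scaling by the median ratio Gimap9 was called higher, with a change of 0.545. Without WT replicate 2 at 30 min the calls of Gimap1 and Gimap7 were lost. The call of Gimap7 was also lost without WT replicate 2 at 0 min or WT replicate 1 at 30 min, and that of Gimap1 without mutant replicate 2 at 30 min.

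The make-up of the family's transcripts was described by each member's share of the summed RPKM of the 8 genes. The sum was 1074 and 1127 RPKM in WT and 1090 and 1115 RPKM in mutant cells at 0 min, and 528 and 411 RPKM at 120 min. Gimap6 made up 24.9% and 19.0% of it in WT and 23.5% and 17.0% in mutant cells at 0 min, and 46.6% and 49.9% at 120 min. Gimap3 went from 34.0% and 33.4% to 14.0% in WT cells and from 24.7% and 25.6% to 8.02% in mutant cells. Gimap9 went from 5.10% and 5.33% to 11.5% in WT cells and from 7.07% and 6.66% to 16.7% in mutant cells. At 30 min the Gimap6 share was between these, at 41.2% and 37.1% for WT cells, and at 32.4% and 25.4% for mutant cells. Shares are taken within a library and do not depend on scaling between libraries, and a share also rises when other members fall.

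**Figure D3:**
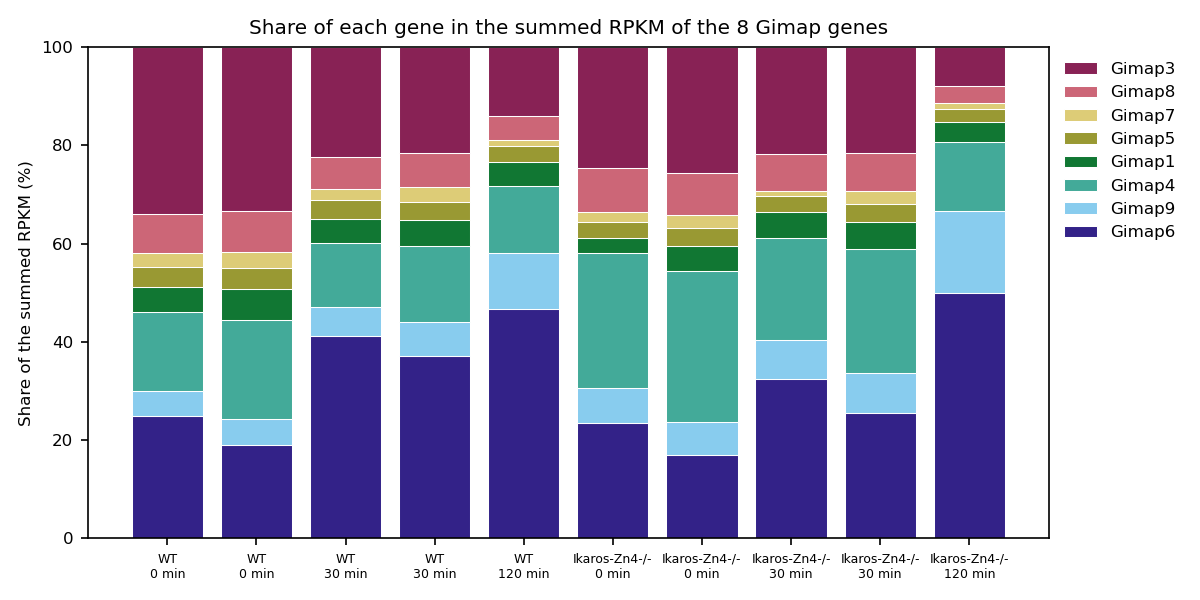
Share of each Gimap gene in the summed RPKM of the 8 genes, in percent, as 1 stacked bar per library from 0 to 120 min. The Gimap6 part grows to 46.6% and 49.9% in the 120 min libraries and the Gimap3 part shrinks to 14.0% and 8.02%.

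The next comparison asked whether Ikaros-Zn4-/- cells differed from WT cells in these genes. Over all times, in an additive model of genotype and time, 0 of 8 members were called, against 9.42% of all genes. Without adjustment 5 of 8 had p below 0.05, as did 2838 of 12203 genes. Limma-voom on reads recovered from the RPKM steps called 3 members (Gimap3, Gimap4 and Gimap9) and 1525 of 12140 genes. Gimap9 was closest, with a log2 difference of 0.31, mutant minus WT (SE 0.09, limma, adjusted p = 0.0643). It was higher in mutant cells at each time, with no overlap at 0 min or at 30 min.

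Gimap4 had a difference of 0.47 over all times (SE 0.18, limma, adjusted p = 0.156), and its direction was not the same at each time. At 0 min it was at 174 and 227 RPKM in WT and 299 and 343 RPKM in mutant cells, and at 30 min at 95.4 and 118 against 138 and 199 RPKM. Both mutant libraries were above both WT libraries at these times, while at 120 min the mutant library, at 57.7 RPKM, was below the WT library, at 72.1 RPKM. Without the WT or without the mutant library of 120 min the difference was 0.66 and was called (adjusted p = 0.0377). At 0 min alone it was 0.69 (SE 0.23, adjusted p = 0.235).

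Lower values in the mutant were found for Gimap3, with -0.42 (adjusted p = 0.130), Gimap5, with -0.29 (adjusted p = 0.107), Gimap6, with -0.29 (adjusted p = 0.178), Gimap7, with -0.52 (adjusted p = 0.252), and Gimap1, with -0.27 (adjusted p = 0.389). None of these passed the threshold in limma on the deposited values with all libraries, and Gimap8 had a difference of -0.08 (adjusted p = 0.813). Gimap3 passed in limma-voom on recovered reads with all libraries (-0.40, adjusted p = 0.0447). Gimap5 passed with quantile normalization (adjusted p = 0.0391), with median-ratio scaling (adjusted p = 0.0383) and without mutant replicate 2 at 30 min (adjusted p = 0.0382). Without either 120 min library the Gimap3 difference was -0.24 and that of Gimap8 was 0.12. With 1 library left out that of Gimap1 ranged from -0.38 to -0.13 and that of Gimap7 from -0.72 to -0.28. At 0 min alone 0 of 8 members were called in limma, against 2.47% of all genes. Unadjusted p was below 0.05 for 3 of 8 members and for 1701 of 12203 genes. Limma-voom called 0 members and 635 of 12140 genes. The genotypes did not overlap at 0 min for Gimap3, Gimap4, Gimap5, Gimap8 and Gimap9, as for 45.6% of all genes, and at 30 min for Gimap4, Gimap6 and Gimap9, as for 46.9%.

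**Figure D4:**
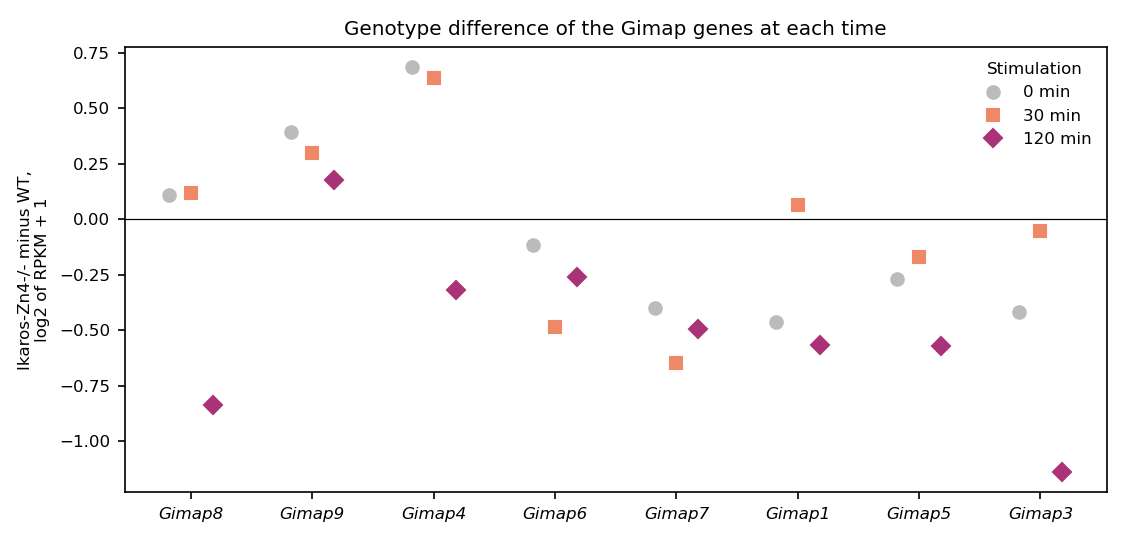
Log2 difference between Ikaros-Zn4-/- and WT cells for each Gimap gene at 0, 30 and 120 min, on the log2(RPKM + 1) scale. Gimap4 is at 0.69, 0.64 and -0.32 and Gimap3 at -0.42, -0.05 and -1.14, and the 120 min values compare 1 library with 1.

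Whether the response to stimulation differed between the genotypes was tested as an interaction. At 30 min 0 of 8 members were called by limma or limma-voom, with 0.0% of all genes called. Unadjusted p was below 0.05 for 656 of 12203 genes and for 0 of 8 members. At 120 min 0 of 8 were called by limma or limma-voom, again with 0.0% of all genes called. Unadjusted p was below 0.05 for 661 of 12203 genes and for 3 of 8 members. These 3 were Gimap8 at -0.95 (SE 0.24, limma, adjusted p = 0.862), Gimap3 at -0.72 (SE 0.23, limma, adjusted p = 0.893) and Gimap4 at -1.0 (SE 0.40, limma, adjusted p = 0.919). The interaction value was negative, a deeper decline in the mutant, for 8 of 8 members and for 53.1% of all genes, though that of Gimap1 was 0.02 after quantile normalization. With 1 library left out 3 members turned positive: Gimap1 (up to 0.26) and Gimap7 (up to 0.16) without mutant replicate 2 or WT replicate 1 at 0 min, and Gimap6 (up to 0.07) without mutant replicate 1 or WT replicate 2 at 0 min. Since each genotype has 1 library at 120 min, all 8 values share the same pair of libraries.

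By time, the mutant minus WT difference of Gimap8 was 0.11 at 0 min, 0.12 at 30 min and -0.84 at 120 min. That of Gimap3 was -0.42, -0.05 and -1.14, and that of Gimap4 was 0.69, 0.64 and -0.32. A mutant mean above WT at 0 and 30 min and below WT at 120 min occurred in Gimap4 and Gimap8, and in 12.1% of all genes. Gimap9 stayed positive at 0.39, 0.30 and 0.18, and Gimap6 negative at -0.12, -0.49 and -0.26.

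The genes around the cluster were examined in the same way. Of all genes 40.4% fell and 19.3% rose at 120 min. Of 13 measured genes with a start within 500 kb of the cluster, 10 fell and 1 rose. Of those that fell, Gm24325 and Zfp467 reach a mean of 1.000 RPKM only in WT cells at 0 min. AI854703 reaches it only in mutant cells at 0 min. Every gene of the table reaches this level in some group, so the falls of these genes were favoured by their entry and give no support. Gimap1os, the antisense transcript at Gimap1, fell as well, from 8.49 and 11.1 to 1.88 RPKM in WT and from 8.93 and 12.5 to 0.883 RPKM in mutant cells (-1.94). Where it overlaps Gimap1, the reads of the 2 cannot be told apart. The others that fell were Lrrc61 (-1.74), Tmem176a (-1.25), Zfp775 (-0.93), Krba1 (-0.88), Gm24325 (-0.72), Tmem176b (-0.62), Malsu1 (-0.58), AI854703 (-0.50) and Zfp467 (-0.40), all relative to the median of all genes. Gm7887 rose by 0.87, and Tra2a (0.58, adjusted p = 0.0667) and Gpnmb (-0.22, adjusted p = 0.455) were not called. Gimap6 and Gimap9, inside the cluster, lay between genes that fell on both sides. At 30 min 12.5% of all genes fell and 6.51% rose. Of the neighbours Gimap1os (-0.85), Tmem176a (-0.35) and Gm24325 (-0.91) fell and Tra2a rose by 0.85 then. Each of these 3 falls lost its call when 1 of several libraries was left out, with adjusted p up to 0.0551, 0.112 and 0.0988, and so did the fall of Gm24325 at 120 min (up to 0.0661). Gm24325 is listed at 0 RPKM in 7 of 10 libraries. The falls of AI854703, Zfp467, Malsu1 and Gm24325 at 120 min also lost their call under some alternative processing. AI854703 was at 0.0229 to 1.76 RPKM and Zfp467 at 0.0672 to 1.40 RPKM over the libraries, which is near the floor.

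The pair next to the cluster differed by genotype. Tmem176b, a membrane protein gene, was at 0.818 and 0.824 RPKM in WT and at 85.7 and 91.1 RPKM in mutant cells at 0 min. Tmem176a was at 1.25 and 2.11 RPKM in WT and at 66.1 and 64.3 RPKM in mutant cells. The log2 differences over all times were 5.17 and 4.58. Of the 2, Tmem176b reaches a mean of 1.000 RPKM only in mutant groups. These 2 genes were the only ones of the 13 neighbours called between the genotypes, against 9.42% of all genes. The Gimap genes had 0 of 8 called, which is near that share, and limma-voom called 3 of them.

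**Figure D5:**
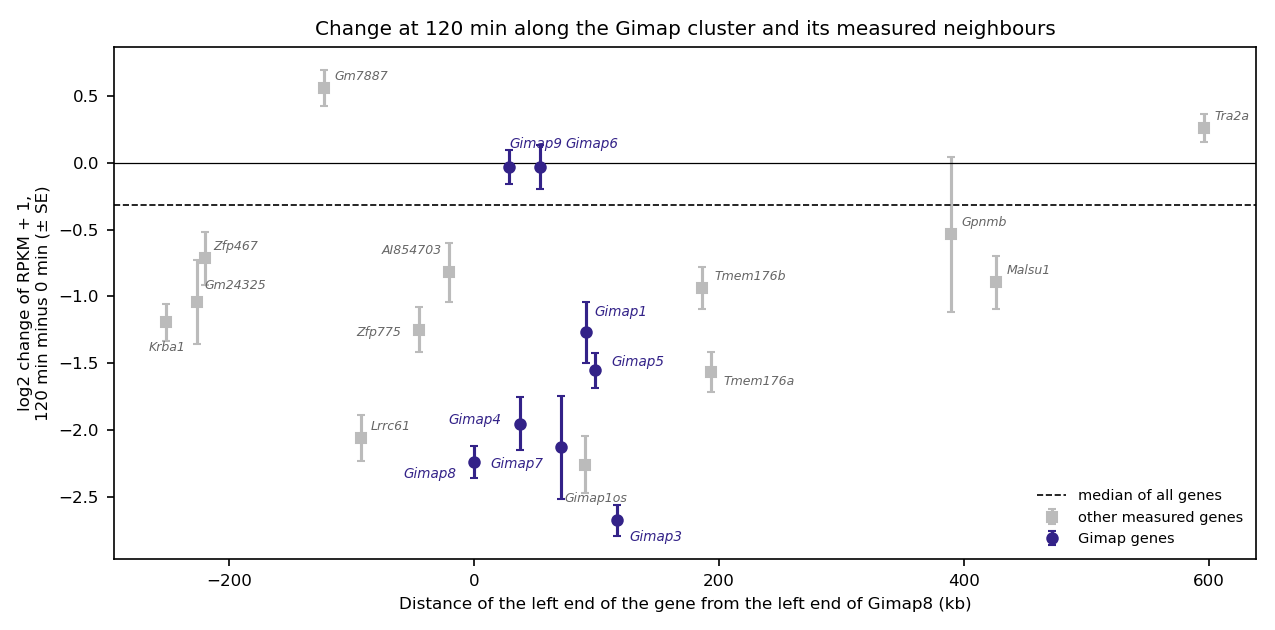
Log2 change at 120 min against 0 min (RPKM + 1, with SE from limma) of each measured gene along the Gimap cluster and within 500 kb of it, by distance in kb from the left end of Gimap8. Gimap6 and Gimap9 sit near 0 between members at -1.27 or lower, and the dashed line is the median of all genes at -0.32.

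Other genes of T cell survival and other GTPases of immunity give a setting for these values. Of all genes 6.51% rose and 12.5% fell at 30 min, and 19.3% rose and 40.4% fell at 120 min. In the BCL2 family, the regulators of mitochondrial cell death, 14 of 15 listed genes were tested. At 30 min 2 rose and 1 fell: the death-promoting Pmaip1 (1.40) and Bbc3 (1.34) rose and Bid (-0.60) fell, and Bcl2l2 (-0.19, adjusted p = 0.157) was not called. At 120 min 2 rose and 3 fell, among them the survival gene Bcl2 (-1.41) and Bid (-1.20), which fell, and the death-promoting Bcl2l11 (2.11) and Bbc3 (1.54), which rose. Between genotypes, where 6.19% of all genes were higher and 3.24% lower in the mutant, 3 were higher, Pmaip1 (2.26), Bcl2l2 (1.12) and Bak1 (0.57), and Bcl2l11 (-0.47, adjusted p = 0.136) was not called. Bcl2l2 reaches a mean of 1.000 RPKM only in mutant groups, so its higher value there was favoured by its entry into the table. The list's median deposited change at 120 min was -0.14, against -1.75 for the Gimap genes.

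Of 22 genes of naive T cell survival and quiescence, 2 rose and 0 fell at 30 min, against 6.51% and 12.5% of all genes. The 2 were the antiproliferative genes Tob1 (2.25) and Btg1 (0.92). Stat5a (0.52, adjusted p = 0.0711) and Slfn2 (-0.36, adjusted p = 0.0818) were not called. At 120 min 8 rose and 5 fell, against 19.3% and 40.4% of all genes. Among those called were Stat5a (3.05), Foxo3 (1.58), the cytokine receptor kinase gene Jak3 (-2.26) and the shared cytokine receptor chain gene Il2rg (-1.41). Between genotypes 2 were lower in the mutant, Foxp1 (-0.38) and Gfi1 (-0.69), and 0 higher, against 3.24% and 6.19% of all genes. Btg1 (-0.28, adjusted p = 0.0828) and Jak3 (0.52, adjusted p = 0.0894) were not called.

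The interferon-inducible GTPases are another family of immune GTPases, and 16 of 17 listed genes were tested. At 30 min 0 rose and 10 fell, against 6.51% and 12.5% of all genes. Gbp7 was at -0.75, Igtp at -0.56, Gbp4 at -0.46 and Gbp8 at -0.34. At 120 min 0 rose and 12 fell, against 19.3% and 40.4% of all genes. Gbp7 was then at -1.96, Mx1 at -1.89, Gbp8 at -1.76 and Gbp9 at -0.72. Between genotypes 9 were higher in the mutant and 0 lower, against 6.19% and 3.24% of all genes. Among the higher ones were Iigp1 (2.60), Gbp2 (1.19), Igtp (0.98) and Irgm1 (0.85). Of the Gimap genes 0 of 8 were called, which is near the 9.42% of all genes, and limma-voom called 3.

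The members themselves were not alike over the 10 libraries, which share stimulation as their main source of difference. As a description, Pearson's r of a member with the mean standardized profile of all 8 was 0.983 for Gimap8, 0.983 for Gimap5, 0.976 for Gimap3, 0.943 for Gimap7, 0.902 for Gimap4 and 0.895 for Gimap1. It was 0.144 for Gimap9 and 0.067 for Gimap6, and each member is itself part of that mean. Of 6974 genes whose mean was 5 RPKM or more, the 5 outside the family closest to this profile were Pphln1 (r = 0.988), the lymphocyte surface protein gene Cd48 (0.988), the actin-nucleating complex gene Arpc5 (0.986), Gimap1os (0.986) and Fam32a (0.985). Gimap1os overlaps Gimap1, and their reads cannot be told apart there. Cd48 was at 87.0 and 98.4, then 48.5 and 63.2, then 22.2 RPKM in WT cells, with no overlap between the times.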

How the data were processed

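Each of the 10 libraries is 1 column of a table of RPKM values that the authors deposited, with genes as rows. Per the submitters' processing notes, TopHat2 2.0.12, TopHat and HTSeq 0.6.1 were used with the builds mm10 and GRCm38. The annotation version, gene lengths and any gene filter were not given in the sources used here. Every gene of the table reaches a mean of 1.000 RPKM in at least 1 of the 6 groups. Per the labels' protocols, single-end libraries were made with a kit that does not mark strand. A gene counted with less than its true length or with reads lost to a paralog would be shifted in every library alike.

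Depth was recovered from the steps of the RPKM values with union exon lengths of GENCODE M21. Of the values below 200 reads, 65.8% to 71.2% fell within 0.01 read of a whole number, and the table holds 94.0% to 101% of the recovered depth, where a share above the whole shows a small error in depths or lengths. Symbols and positions were matched for 12567 of 12637 genes.

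Tests used limma 3.58.1 (R 4.3.3) on log2(RPKM + 1), for the 12203 genes whose mean was 0.5 RPKM or more, with a mean for each group (4 residual degrees of freedom) and an intensity trend. Genotype over all times was tested in an additive model with time (6 residual degrees of freedom). Tests were two-sided, with Benjamini-Hochberg adjustment over the whole table of tested genes. On data simulated for the 30 min comparison with 12140 genes, 70% of 2-fold and 99% of 4-fold changes were recovered, with 12 false calls. The simulated reads had the same assumed dispersion for every gene and no replicate effect, and only genes with a mean of 5 RPKM or more were changed. These rates cannot give those of the real data, where the spread differs between genes. Fold changes on the RPKM + 1 scale understate those of low genes. Alternatives were another pseudocount, no filter, quantile and median-ratio scaling, limma-voom on recovered reads, a replicate block, the spread of the compared groups alone and leaving out each library.

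The members, gene lists and tests were chosen with earlier results of these data known. All 8 members are named, as are neighbours within 500 kb, the 4 genes of smallest p in each list and contrast, and the 5 genes most like the members' mean profile. Python 3.11.15 made the tables (pandas 2.3.3, numpy 2.4.6) and the plots (matplotlib 3.10.9).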

Additional observations from a re-analysis of the deposited data

Results flagged for a closer look

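On the deposited scale, Gimap9 at 120 min went different ways in the genotypes relative to 0 min. Its log2 change was 0.08 in WT cells, where the 120 min library was above both 0 min libraries, and -0.14 in mutant cells, where it was below both. Relative to the median of all genes both were positive, at 0.36 and 0.20. The difference between these changes was -0.22 (SE 0.26, limma, adjusted p = 0.99), with 1 library per genotype at 120 min.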

How the results depend on the processing

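Gimap7 rests on the fewest reads, and the 120 min comparisons rest on 1 library per genotype, without which they could not be fitted. For 120 against 0 min 6 members were called, 7 with median-ratio scaling and 6 under each other alternative and with 1 library left out. For 120 against 30 min 6 were called, 5 with quantile normalization, 7 with median-ratio scaling and 4 to 6 with 1 library left out. In both comparisons the call that median-ratio scaling added was a rise of Gimap9. The cause of the changes below was not tested. With the replicate number as a block 7 members were called at 30 min, 5 in WT and 4 in mutant cells alone, 1 between genotypes at 0 min (Gimap4) and 1 over all times (Gimap9). The correlations of same-numbered libraries' deviations were positive for all 6 pairs of groups, at 0.037 to 0.23, and the table held 94.0% to 96.5% of the depth in replicates 1 and 97.4% to 101% in replicates 2. Because 1 correlation was under 0.1 and the labels do not say what a number marks, pairing was not assumed, and whether it holds is not settled. The title and the description of the mutant library at 120 min give different replicate numbers, and the block used that of the description. With limma-voom 6 were called at 30 min over both genotypes, 5 in WT cells alone, 4 in mutant cells alone and 3 between genotypes. With the spread of the compared groups alone 1 was called in WT and 0 in mutant cells. Between genotypes 1 was called with quantile normalization (Gimap5) and 2 with median-ratio scaling (Gimap5 and Gimap9).

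With 1 library left out the number of members called ranged from 2 to 5 at 30 min, 0 to 3 in WT and 0 to 2 in mutant cells alone, and 0 to 1 between genotypes. Counts over all genes moved as well: at 30 min 2317 genes were called, 1953 to 3484 under the other alternatives and 779 to 2316 with 1 library left out. Within WT cells these were 736, 233 to 1891 and 13 to 744, and within mutant cells 334, 0 to 973 and 39 to 337. Between genotypes at 0 min they were 302, 96 to 635 and 105 to 300, and over all times 1150, 948 to 1567 and 706 to 1036. The interaction at 120 min had 0, 0 to 13 and 0 to 0.

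Signs turned for values near 0. Unlike the stimulation changes above, the values in this paragraph are not relative to the median of all genes. On this scale and in the main analysis Gimap6 was at 0.099 at 30 min, and at 120 min Gimap6 and Gimap9 were both at -0.03. Relative to the median these were 0.23, 0.29 and 0.28. Gimap6 had -0.013 at 30 min with quantile normalization. At 120 min it had 0.059 with quantile normalization, 0.381 with median-ratio scaling and 0.09 with the block, and for 120 against 30 min 0.072 and 0.136 with these scalings. Gimap9 had 0.374 at 120 min with median-ratio scaling, and the Gimap1 interaction at 120 min was 0.024 with quantile normalization. With 1 library left out, Gimap6 ranged from -0.009 to 0.206 at 30 min, -0.138 to 0.078 at 120 min and -0.332 to 0.099 between genotypes at 0 min. Gimap9 ranged from -0.066 to 0.0 at 120 min and Gimap8 from -0.151 to 0.115 between genotypes over all times. The interactions at 120 min ranged from -0.466 to 0.264 for Gimap1, -0.359 to 0.072 for Gimap6 and -0.352 to 0.156 for Gimap7. Of the other comparisons of single genes, 700 stayed on their side of the threshold, 28 became calls and 9 lost one with all libraries, and 854, 7 and 57 with 1 left out. Bid and Bbc3 at 30 min and Foxp1, Gfi1 and Bak1 between genotypes were among those that lost their call when 1 of several libraries was left out.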
